A study of Mus musculus with 21 samples.

Results

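The mitochondrial ribosome translates the few mRNAs encoded by mitochondrial DNA, which specify core membrane subunits of the respiratory chain and of ATP synthase. Its RNA comes from mitochondrial DNA, whereas its proteins are encoded by nuclear genes, made in the cytosol and imported. Some of these proteins descend from bacterial ribosomal proteins, and others exist only in mitochondria. In mice their genes carry the prefix Mrpl for the large subunit and Mrps for the small subunit, and the prefix does not always match the place of the protein in the assembled particle.

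The members described here are the protein-coding genes whose symbol in the GRCm38 mouse annotation begins with Mrpl or Mrps followed by a digit, which gave 78 of the 55487 gene rows in the table. By the known place of each protein, 51 belong to the large subunit and 26 to the small subunit. Mrps30 and Mrps18a were placed with the large subunit, where their proteins are found. Mrps36 was placed with neither, because its protein is a part of the alpha-ketoglutarate dehydrogenase complex. A bacterial homologue is known for 46 of the subunit proteins and 31 are specific to mitochondria.

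Expression was measured by poly(A)-selected, strand-marking RNA sequencing of frozen Hepa1-6 tumours, grown from a mouse hepatoma cell line in C57BL/6 mice. The 21 libraries form 4 groups. Wild-type (WT) mice received isotype control antibody (5 libraries) or anti-PD1 together with anti-CTLA4, called the combination below (5 libraries). B-cell-depleted mice received isotype control (6 libraries) or the same combination (5 libraries). All groups share the tumour line and the mouse strain; how B cells were depleted, the age of the mice and the animal behind each library are not stated in the labels. The p-values therefore measure the spread between these libraries, which may be technical in part. The material was whole tumour, so fewer cells of a type and less RNA per cell cannot be told apart.

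Library totals ran from 9523017 to 19166818 counts. The hepatocyte mRNAs Alb and Hnf4a were present in every library, with Alb between 76.4 and 2024 CPM (the count scaled by the library total). The B-depleted combination replicate 5 stood apart from its group and lay with the WT combination libraries on the leading axis of variation. Its values are therefore given separately where they bear on a result.

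Promoter sequences of 6 members are shown because these genes are among those that changed in WT tumours, 4 of them falling and 2 rising. Each sequence runs 5′ to 3′ on the strand of the gene, from 250 bases before to 50 bases after the annotated start, and comes from RefSeq on GRCm38.p6. Capitals mark matches to CCGGAA, the core bound by ETS-family factors, or to AANATGGC, the core bound by YY1, on either strand. The window of Mrps30 lies at chr13:118387203-118387502 on the minus strand, Mrpl21 at chr19:3282792-3283091 on the plus strand, Mrpl22 at chr11:58171414-58171713 on the plus strand, Mrpl49 at chr19:6057706-6058005 on the minus strand, Mrps18c at chr5:100798509-100798808 on the plus strand and Mrpl33 at chr5:31613701-31614000 on the plus strand.
Mrps30 promoter: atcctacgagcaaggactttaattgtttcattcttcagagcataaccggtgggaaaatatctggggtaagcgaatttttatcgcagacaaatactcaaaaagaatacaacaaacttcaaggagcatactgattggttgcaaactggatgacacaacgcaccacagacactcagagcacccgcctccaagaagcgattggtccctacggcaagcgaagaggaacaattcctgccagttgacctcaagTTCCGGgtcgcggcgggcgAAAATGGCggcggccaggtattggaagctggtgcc
Mrpl21 promoter: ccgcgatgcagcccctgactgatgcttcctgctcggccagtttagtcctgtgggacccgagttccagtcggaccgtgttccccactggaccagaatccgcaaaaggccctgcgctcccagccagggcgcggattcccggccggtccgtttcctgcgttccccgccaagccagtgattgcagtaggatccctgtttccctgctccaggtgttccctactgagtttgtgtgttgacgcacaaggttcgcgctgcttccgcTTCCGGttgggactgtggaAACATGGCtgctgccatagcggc
Mrpl22 promoter: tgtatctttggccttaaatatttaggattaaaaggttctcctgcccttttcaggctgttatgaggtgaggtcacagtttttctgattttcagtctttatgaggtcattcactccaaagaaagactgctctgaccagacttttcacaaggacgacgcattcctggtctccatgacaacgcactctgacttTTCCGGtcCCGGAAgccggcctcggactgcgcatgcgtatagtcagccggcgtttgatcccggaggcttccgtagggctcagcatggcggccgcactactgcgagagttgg
Mrpl49 promoter: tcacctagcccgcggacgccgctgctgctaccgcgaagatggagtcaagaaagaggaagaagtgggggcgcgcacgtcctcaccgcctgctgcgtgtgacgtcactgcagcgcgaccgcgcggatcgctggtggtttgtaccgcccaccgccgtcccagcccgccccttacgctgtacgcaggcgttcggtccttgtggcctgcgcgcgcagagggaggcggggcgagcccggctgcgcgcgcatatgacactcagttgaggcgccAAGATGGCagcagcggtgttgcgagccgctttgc
Mrps18c promoter: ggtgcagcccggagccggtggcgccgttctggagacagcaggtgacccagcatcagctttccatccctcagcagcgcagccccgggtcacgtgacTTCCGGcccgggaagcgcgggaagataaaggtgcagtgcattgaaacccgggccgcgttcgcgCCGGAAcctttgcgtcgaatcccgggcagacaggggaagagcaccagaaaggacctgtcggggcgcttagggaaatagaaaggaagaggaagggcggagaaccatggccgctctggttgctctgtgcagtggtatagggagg
Mrpl33 promoter: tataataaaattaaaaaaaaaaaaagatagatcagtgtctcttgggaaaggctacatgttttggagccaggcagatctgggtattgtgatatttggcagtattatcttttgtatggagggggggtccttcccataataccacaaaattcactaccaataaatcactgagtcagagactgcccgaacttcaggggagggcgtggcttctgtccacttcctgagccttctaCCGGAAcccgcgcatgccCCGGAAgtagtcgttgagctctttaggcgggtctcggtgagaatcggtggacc
In Mrps30 and Mrpl21 an ETS match is followed by a YY1 match close to the start of transcription, whereas Mrpl49 holds a YY1 match alone. Mrpl22, Mrps18c and Mrpl33 each hold 2 ETS matches. Among members that fell and are not shown, Mrpl50 and Mrps18b hold 1 ETS match each, and Mrps2 holds neither motif. The ETS and YY1 matches therefore occur in promoters of genes that fell and, for ETS, of genes that rose.

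The 77 members with counts differed in level by 16.1 times per length of merged exons. Per length (RPKM, counts per kilobase of merged exons, on the CPM scale), the mean level over all libraries ran from 1.89 for Mrpl48 to 30.4 for Mrpl10, with a median of 6.41. Mrpl10 anchors the flexible stalk that recruits translation factors, and Mrpl12, the stalk protein itself, was behind it and Mrpl50 at 21.5 RPKM. Mrpl50, a mitochondria-specific protein of the large subunit, stood at 21.9 RPKM, and Mrpl12 was followed by Mrpl24 at 18.6 and Mrpl34 at 15.3 RPKM. The lowest after Mrpl48 were Mrps22 at 2.58, Mrpl47 at 2.702, Mrps26 at 2.703 and Mrpl33 at 2.78 RPKM. The median was 7.05 RPKM for large-subunit members and 6.18 RPKM for small-subunit members. The range and the order depend on the length used. With the length of the principal transcript in place of all merged exons, the range was 26.4 times. With that length 0 of the 5 highest and 3 of the 5 lowest members were shared, and Mrpl33 stood at 42.6 RPKM, among the highest. The range and the order are therefore given as a description only.

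Mrpl53, which encodes a mitochondria-specific large-subunit protein, was listed at 0 counts in all 21 libraries. Of its exon bases 88.0% are shared on the same strand with the gene Gm42688, which held 590 counts over all libraries. Whether Mrpl53 was transcribed cannot be told from these counts. Exons of 33 members overlap those of another gene, among them Mrps25 with Nr2c2 (69.8% of its exon bases) and Mrps34 with Mapk8ip3 (63.4%), and the labels do not state the strand setting of the counting. Counts of these members may be incomplete or may hold reads of the partner. Within groups the members were steady, with a median coefficient of variation across libraries of 10.6% in WT isotype, 12.1% in WT combination, 10.4% in B-depleted isotype and 14.7% in B-depleted combination libraries.

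Mitochondrial ribosomal protein mRNAs took a smaller share of the counts in WT tumours given the combination than in the other 3 groups. The 78 genes together held 0.159%, 0.165%, 0.182%, 0.175% and 0.173% of all counts in the WT isotype libraries. They held 0.154%, 0.133%, 0.150%, 0.126% and 0.123% in the WT combination libraries. The ranges of these groups did not overlap. In B-depleted tumours the share was 0.157% to 0.186% with isotype (median 0.174%), and with the combination it was 0.169%, 0.171%, 0.178%, 0.173% and 0.136%. The last value is that of replicate 5, and the other 4 lay inside the isotype range. The mean RPKM of large-subunit members was 1.26 to 1.43 times that of small-subunit members in the 21 libraries, and the 4 groups overlapped in this ratio.

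The first comparison asks how the tumours of WT mice differed after the combination and isotype treatments. Of the 77 members tested, 35 were lower and 2 were higher under the combination (edgeR quasi-likelihood test, adjusted p under 0.05 over 19061 genes). Among all genes tested 25% were lower and 25% were higher, so the share of lower members, 45.5%, was above the background and that of higher members was below it. The median log2 fold change was -0.28 for the members and 0.00 for all genes, and 65 of 77 members had a negative value. In 21 members every combination library was below every isotype library, against 14.3% of all genes. In 1 member the order was the opposite, against 15% of all genes.

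Members of both subunits fell. Of 50 large-subunit members tested, 23 fell and 1 rose, with a median log2 fold change of -0.27. Of 26 small-subunit members, 12 fell and 1 rose, with a median of -0.31. Among members with a bacterial homologue 21 of 46 fell and 2 rose, and among mitochondria-specific members 14 of 30 fell and 0 rose. The medians of these last classes were -0.29 and -0.28. No difference between these classes was tested. Some members that fell overlap an opposite-strand gene that also fell (edgeR adjusted p under 0.05). These were Mrpl13 with Mtbp (-0.63 ± 0.18), Mrpl19 with Gcfc2 (-0.57 ± 0.11), Mrpl21 with Ighmbp2 (-0.54 ± 0.11), Mrpl44 with Wdfy1 (-0.54 ± 0.15) and Mrpl49 with Syvn1 (-0.33 ± 0.11). Mif4gd, which overlaps Mrps7, rose by 0.64 ± 0.12, and Slc5a3, which overlaps Mrps6, was not called (-0.063 ± 0.195). The part of shared reads was not tested.

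Mrps30, which encodes a large-subunit protein also studied as a cell death protein, had 37.4, 40.5, 51.7, 46.6 and 45.6 CPM in the WT isotype libraries. It had 32.2, 29.6, 33.3, 23.8 and 22.7 CPM in the WT combination libraries, all below the lowest isotype value. The log2 fold change was -0.63 ± 0.13 (SE; n = 5 and 5; edgeR adjusted p = 0.00067). Mrpl50 had 41.7, 40.5, 59.0, 60.4 and 55.3 CPM with isotype and 44.2, 28.9, 37.7, 26.3 and 25.5 CPM with the combination. Its groups overlapped through combination replicate 1, and its log2 fold change of -0.65 ± 0.15 (edgeR adjusted p = 0.0021) was the most negative of the members. Mrpl21, homologous to bacterial L21, had 13.8, 11.6, 16.5, 12.9 and 10.8 CPM with isotype and 9.84, 7.36, 10.3, 6.999 and 7.10 CPM with the combination, with no overlap. Its log2 fold change was -0.64 ± 0.15 (edgeR adjusted p = 0.00193).

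Mrpl49, a mitochondria-specific large-subunit protein, had 19.98, 17.8, 26.2, 24.9 and 23.6 CPM with isotype and 17.4, 11.9, 16.3, 14.2 and 11.99 CPM with the combination. Its groups were separated by a narrow gap, and its log2 fold change was -0.63 ± 0.16 (edgeR adjusted p = 0.0041). Mrps2, whose bacterial homologue sits on the solvent side of the small subunit, had 29.7, 29.8, 44.8, 44.4 and 38.4 CPM with isotype and 25.9, 26.2, 25.9, 20.1 and 24.6 CPM with the combination. The isotype libraries 1 and 2 were close to the combination values, and the other 3 were well above them. The log2 fold change of Mrps2 was -0.59 ± 0.13 (edgeR adjusted p = 0.00161). Mrps35, a mitochondria-specific small-subunit protein, fell by 0.57 on the log2 scale (SE 0.13; edgeR adjusted p = 0.00192), from 42.9 ± 4.26 to 28.6 ± 4.86 CPM (mean ± SD, n = 5 and 5), with no overlap.

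**Figure D1:**
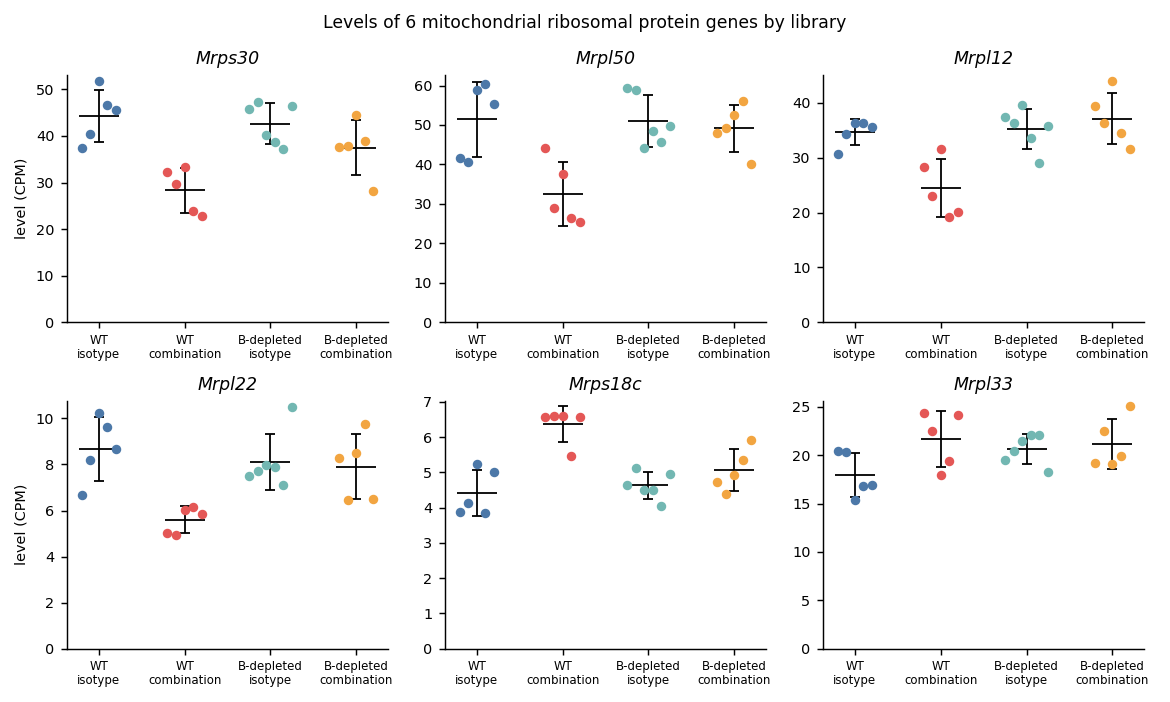
Level (CPM, linear axis from 0) of 6 members in each of the 21 libraries by group; points are libraries and black lines give the mean ± SD. The WT combination libraries of Mrps30 and Mrpl22 lie below all WT isotype libraries, those of Mrps18c lie above them, and those of Mrpl50, Mrpl12 and Mrpl33 overlap them.

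The nascent chain leaves the large subunit through a tunnel whose exit is lined by Mrpl22, Mrpl23, Mrpl24 and Mrpl47 and by the mitochondria-specific Mrpl39, Mrpl44 and Mrpl45, the last of which helps to bind the ribosome to the inner membrane. Of these 7, 4 fell, against 25% of all genes tested. Mrpl22 had 6.68, 8.18, 10.2, 9.62 and 8.66 CPM in WT isotype libraries and 5.01, 4.95, 6.04, 6.17 and 5.86 CPM in WT combination libraries. The groups did not overlap, and the log2 fold change was -0.61 ± 0.15 (edgeR adjusted p = 0.00267). Mrpl23 had a value of -0.43 ± 0.11 (edgeR adjusted p = 0.00331), Mrpl44 of -0.38 ± 0.15 (0.0447) and Mrpl45 of -0.33 ± 0.12 (0.0275). Mrpl39 had -0.28 ± 0.13 (0.0677), and Mrpl24 and Mrpl47 had -0.05 ± 0.08 and -0.02 ± 0.09, none of which passed the test. In the stalk, Mrpl10 fell from 56.2 ± 2.64 to 40.6 ± 6.71 CPM (log2 fold change -0.45 ± 0.09, edgeR adjusted p = 0.000926), with no overlap. Mrpl12 had 30.7, 34.3, 36.3, 36.4 and 35.6 CPM with isotype and 28.3, 23.1, 31.6, 19.2 and 20.1 CPM with the combination. Its groups overlapped through combination replicate 3, and its log2 fold change was -0.48 ± 0.12 (edgeR adjusted p = 0.00358). Mrpl11, at the base of the stalk, had -0.28 ± 0.12 (0.0598).

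Mammals have 3 relatives of the bacterial protein S18, and they differed in direction. Mrps18a is built into the large subunit, and Mrps18b and Mrps18c into the small subunit, with Mrps18c in the place of the bacterial protein. Mrps18a was 23.1, 22.02, 25.2, 22.1 and 24.3 CPM in WT isotype and 20.98, 15.5, 20.4, 19.9 and 17.7 CPM in WT combination libraries. It fell by 0.29 on the log2 scale (SE 0.09; edgeR adjusted p = 0.0162), and the groups did not overlap. Mrps18b was 17.8, 17.8, 25.2, 19.8 and 21.2 CPM with isotype and 15.4, 13.8, 14.9, 12.6 and 10.1 CPM with the combination. It fell by 0.60 (SE 0.15; edgeR adjusted p = 0.00263), again with no overlap.

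Mrps18c went the other way, with 3.86, 4.12, 5.23, 3.84 and 5.02 CPM in WT isotype and 6.58, 6.60, 6.61, 5.46 and 6.58 CPM in WT combination libraries. All combination libraries were above all isotype libraries, and the log2 fold change was 0.54 ± 0.13 (edgeR adjusted p = 0.0022). It kept its direction under each of the settings compared, with an adjusted p of 0.146 in the edgeR fit with the Y-linked covariate described below. Of its exon bases 23.2% are shared on the same strand with Gm43511, whose own log2 fold change was 0.16 ± 0.19 (edgeR adjusted p = 0.477). The other member called higher was Mrpl33, a small homologue of bacterial L33. It had 20.4, 20.4, 15.4, 16.8 and 16.9 CPM with isotype and 24.4, 22.5, 17.99, 19.4 and 24.2 CPM with the combination, with overlap. Its log2 fold change was 0.29 ± 0.11 (edgeR adjusted p = 0.0287), and the call was lost without a filter on low counts, in a fit of the WT groups alone and when any of 6 libraries was left out. With the Y-linked covariate described below it was lost too, and the value turned to -0.03.

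Several members with roles apart from the rest did not pass the test in WT tumours. Mrpl58, a peptidyl-tRNA hydrolase that rescues stalled ribosomes, had a log2 fold change of -0.16 ± 0.10 (edgeR adjusted p = 0.2). Mrps12, part of the decoding centre, had -0.32 ± 0.17 (0.127), and Mrpl41 had 0.31 ± 0.16 (0.108). Mrps36, the dehydrogenase component, had -0.24 ± 0.15 (0.19). The intervals of all 4 hold values of a size called in other members: the 95% interval ran from -0.38 to 0.06 for Mrpl58 and from -0.68 to 0.04 for Mrps12.

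Other components of mitochondrial translation were examined as lists chosen by function. Of 5 mitoribosomal proteins with other names, 4 fell in WT tumours. They were Ptcd3, a small-subunit protein that receives the mRNA (-0.87 ± 0.17), Gadd45gip1 (-0.51 ± 0.17), Chchd1 (-0.43 ± 0.12) and the GTP-binding Dap3 (-0.21 ± 0.08), with edgeR adjusted p of 0.000582, 0.0196, 0.00819 and 0.032. In this comparison 25% of all genes tested were lower and 25% were higher. Among 26 assembly factors 6 fell and 1 rose, with a median of -0.14. Fastkd2, Noa1 and Rcc1l fell by 0.67, 0.62 and 0.52 on the log2 scale, and the GTPase Gtpbp10 rose by 1.37 ± 0.31 (edgeR adjusted p = 0.00156), from 3.95 ± 1.04 to 10.1 ± 2.56 CPM. Among 15 translation factors 4 fell and 1 rose, with a median of -0.10; initiation factors Mtif2 and Mtif3 fell by 0.25 and 0.37, and the elongation GTPase Guf1 rose by 0.42. Among 20 aminoacyl-tRNA synthetases and their partners 4 fell and 2 rose, with a median of -0.15. In the lists of assembly factors, translation factors and synthetases the share that fell was near that of all genes.

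The mitochondrial ribosomal RNAs themselves did not pass the test in either direction, and poly(A) selection recovers them only in part. The values were 0.50 ± 0.30 for mt-Rnr2 and 0.06 ± 0.22 for mt-Rnr1. Of 10 mitochondrially encoded mRNAs tested 5 fell and 0 rose, with a median of -0.59 and with mt-Cytb, a subunit of complex III, at -0.95 ± 0.20 (edgeR adjusted p = 0.00094). Among them mt-Co2, mt-Atp6 and mt-Co3 were near the floor. Their WT isotype means were 0.74, 1.10 and 2.36 CPM, against 10110 CPM for mt-Co1. Of 13 genes for transcription and replication of mitochondrial DNA 6 fell, including the helicase Twnk (-0.83 ± 0.18), and 1 rose, Mterf1a (0.85 ± 0.22). Exons of Twnk overlap those of Mrpl43. Among 12 regulators of mitochondrial biogenesis 6 fell and 3 rose: Ppargc1a fell by 1.43, Mycn by 1.18 and Myc by 0.95, and Ppargc1b rose by 0.73. Cytosolic ribosomal protein genes were lower in 65 and higher in 2 of 83 (median -0.49). Nuclear-encoded respiratory chain genes were lower in 24 and higher in 9 of 88 (median -0.12), a share of falls near the 25% of all genes tested.

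Markers of other cells moved with the same comparison, in which 25% of all genes tested were lower and 25% were higher. All 14 T cell genes listed rose in WT tumours, with a summed level of 150.2 to 296 CPM under isotype and 591 to 933 CPM under the combination. Fibroblast and matrix genes rose in 10 of 12, with summed levels of 3299 to 5956 and 8730 to 30812 CPM. Hepatocyte and hepatoma genes fell in 8 of 10, with 1179 to 4383 and 219.6 to 1279 CPM. Cell cycle genes fell in 11 of 16, with 1341 to 1696 and 796 to 1463 CPM. Macrophage genes rose in 10 of 11, endothelial genes in 4 of 8, B cell genes in 6 of 7 (1 fell), skeletal muscle genes in 1 of 8 and adipocyte genes in 0 of 4. Y-linked genes rose in 4 of 4, with a summed level of 47.6 to 79.2 CPM under isotype and 134.7 to 250.5 CPM under the combination. Their part in the member changes was not tested, except that the fit was repeated with the summed Y-linked level as a covariate. In that fit 0 of 77 members were called, the median log2 fold change was 0.03, and 32 of 77 were negative. The 4 members at an unadjusted p under 0.05 (edgeR) all had positive values. They were Mrps18c (0.70), Mrps21 (0.42), Mrpl14 (0.31) and Mrpl13 (0.29), the last of which was called lower without the covariate. The Y-linked level of the WT groups did not overlap, and the median SE rose from 0.12 to 0.17.

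**Figure D2:**
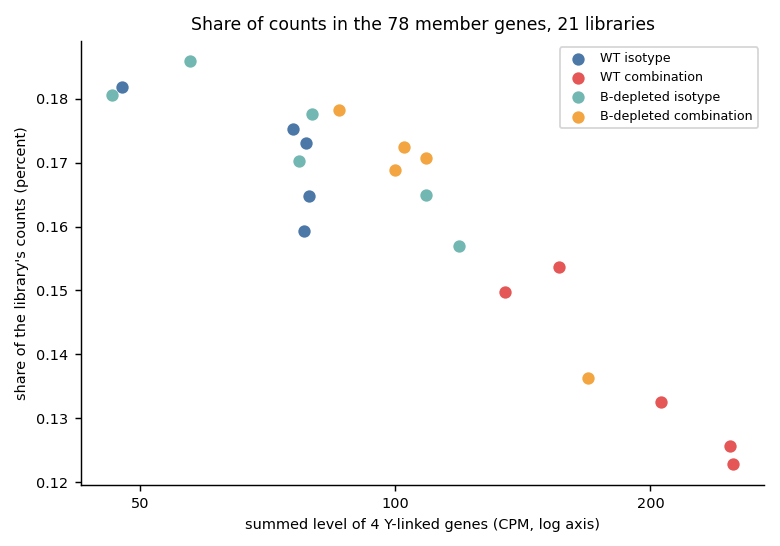
Share of each library's counts in the 78 member genes (percent, axis not from 0) against the summed level of 4 Y-linked genes (CPM, log axis); each point is 1 of 21 libraries, coloured by group. The WT combination libraries lie at 134.7 to 250.5 CPM and 0.123% to 0.154%, and the B-depleted combination replicate 5, at 169 CPM and 0.136%, lies among them.

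The second comparison asks whether the combination changed these mRNAs in B-cell-depleted mice. None of the 77 members was called (edgeR), and 3 had an unadjusted p under 0.05. DESeq2 called 0, with 4 under that unadjusted level, and limma voom called 0, with 3. Few genes were called at all in this comparison, 0.341% of those tested, 0.304% higher and 0.0367% lower. Of the listed genes, T cell genes rose in 5 of 14 (median 1.10) and macrophage genes in 1 of 11 (median 0.69). No gene of the other lists was called, and the cell cycle genes had a median of 0.07. The median log2 fold change was -0.04 for the members and 0.02 for all genes. The 95% intervals of the members lay within -0.48 and 0.57, so falls of the size seen for many members in WT tumours were within some of these intervals. No member had groups without overlap, against 1.14% of genes with the combination above and 0.876% with it below.

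The members of smallest p were Mrpl57 at 0.25 ± 0.10 (edgeR adjusted p = 0.25), Mrpl23 at -0.26 ± 0.10 (0.257) and Mrps31 at -0.21 ± 0.09 (0.272). Mrps30, the member of smallest p in WT tumours, was 37.2 to 47.3 CPM with isotype (median 43.0) and 37.7, 37.9, 44.6, 38.8 and 28.2 CPM with the combination. Its B-depleted groups overlapped, and the only combination library outside the isotype range was replicate 5. Mrpl12 was 29.0 to 39.7 CPM with isotype (median 36.1) and 39.4, 36.3, 43.9, 34.5 and 31.6 CPM with the combination, a log2 fold change of 0.09 ± 0.12. Replicate 5 was the lowest of its group for 55 of the 77 members.

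**Figure D3:**
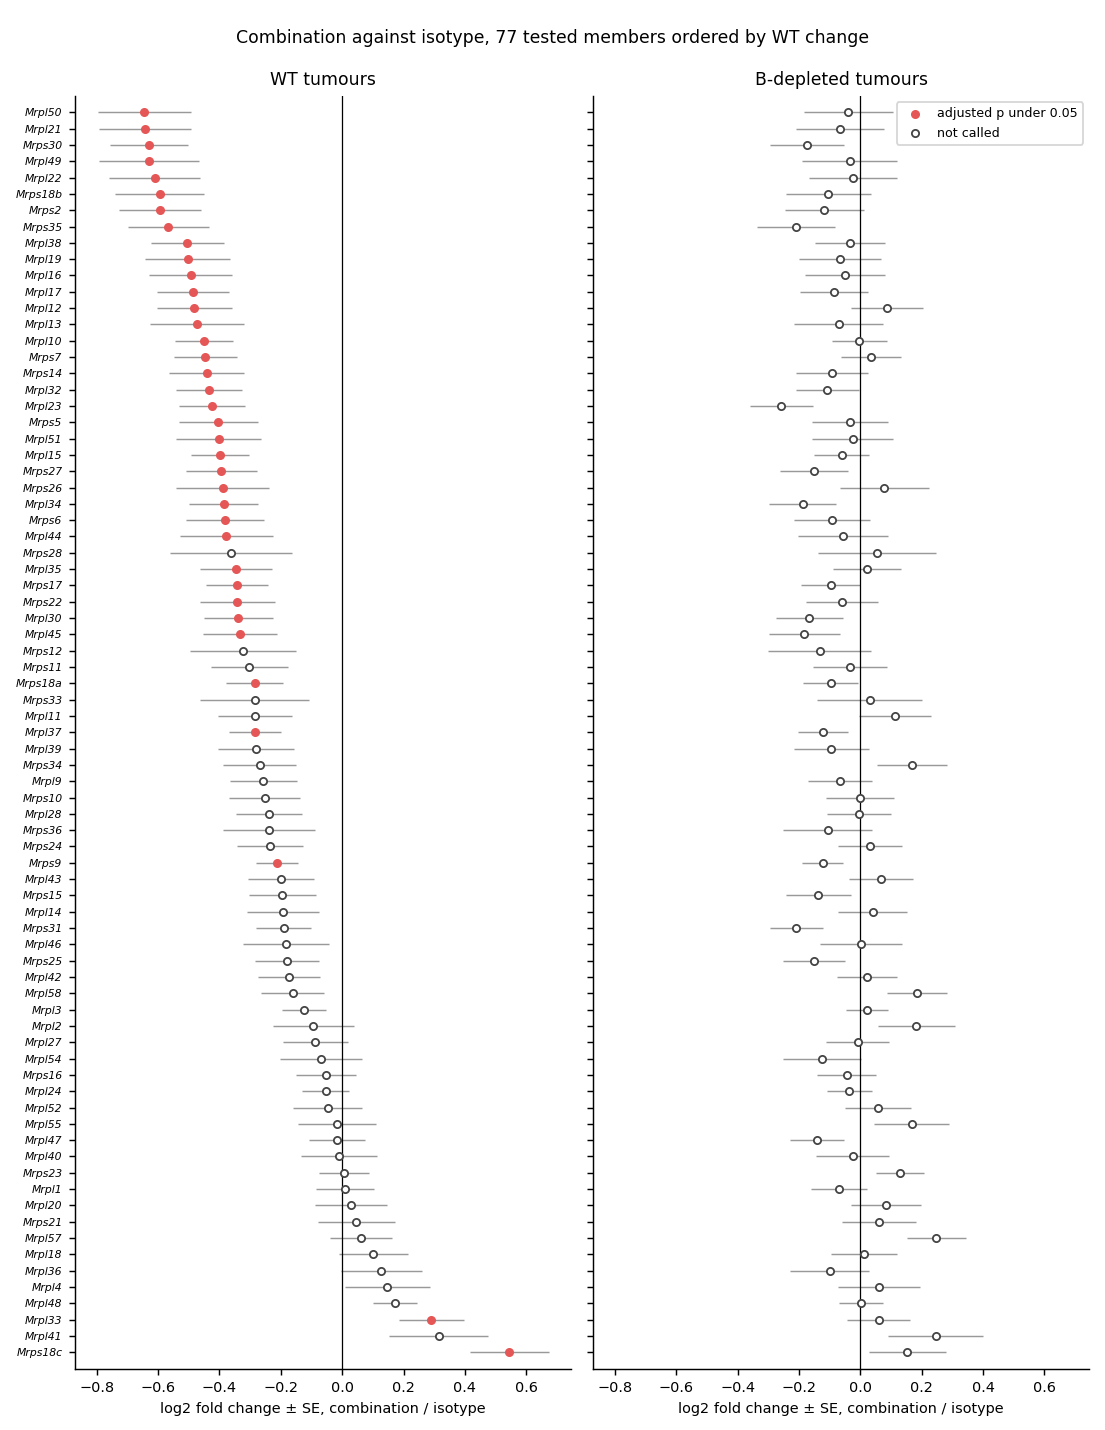
Log2 fold change of the combination against isotype (± SE) for the 77 tested members, ordered by the value in WT tumours, in WT (left) and B-depleted tumours (right); filled points passed an adjusted p under 0.05. The 35 falls and 2 rises are in WT tumours, and the B-depleted values lie around 0 with none called.

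Whether the responses differed was tested with the interaction term. No member was called (edgeR; 22 had an unadjusted p under 0.05), against 0.0262% of all genes, 0.0157% with a positive and 0.0105% with a negative value. The median difference, B-depleted minus WT response, was 0.24 for the members and 0.01 for all genes, and 65 of 77 values were positive. The members of smallest p were Mrpl10 at 0.45 ± 0.13 (edgeR adjusted p = 0.0902), Mrps7 at 0.48 ± 0.14 (0.0908) and Mrpl12 at 0.57 ± 0.17 (0.0908). DESeq2 called these 3. Leaving out 1 library at a time gave between 0 and 6 calls: 6 without WT combination replicate 3, 5 without B-depleted combination replicate 5, and 1, Mrpl10, without WT combination replicate 1.

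The third comparison sets B-depleted against WT tumours under isotype, the effect of depletion without checkpoint blockade. No member was called (edgeR; 1 with an unadjusted p under 0.05), as for all genes, of which 0% were called. No member had groups without overlap, against 0.283% of genes with the B-depleted libraries above and 0.178% with them below. DESeq2 and limma voom also called 0 of the members. The median log2 fold change was -0.02, and the 95% intervals lay within -0.56 and 0.42. The member of smallest p was Mrpl48, a protein of the central protuberance, at 0.17 ± 0.07 (edgeR unadjusted p = 0.0265, adjusted p = 1).

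Under the combination the B-depleted tumours had higher levels of several members than WT tumours. Of 77 members 24 were higher and 0 lower (31.2% higher, edgeR), against 15.5% of all genes higher and 13.5% lower. This comparison uses the same 5 WT combination libraries as the first one, so the values are not separate evidence. The median log2 fold change was 0.23. Of 50 large-subunit members 19 were called and 43 had a positive value, with a median of 0.235. Of 26 small-subunit members 5 were called and 24 had a positive value, with a median of 0.229. A difference between the subunits was not tested. The groups of 1 member, Mrpl22, did not overlap, against 4.51% of all genes in that direction and 6.03% in the other.

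Mrpl22 was 5.01, 4.95, 6.04, 6.17 and 5.86 CPM in WT and 8.30, 6.47, 8.48, 9.75 and 6.498 CPM in B-depleted combination libraries. Its log2 fold change was 0.48 ± 0.15 (edgeR adjusted p = 0.0266). Mrpl49 had the largest value, 0.65 ± 0.17 (0.012), with 22.9, 24.6, 26.8, 23.7 and 16.4 CPM in the B-depleted combination libraries. Only replicate 5 of these overlapped the WT values of 11.9 to 17.4 CPM. Mrpl12 followed with 0.58 ± 0.12 (edgeR adjusted p = 0.00713) and Mrpl50 with 0.58 ± 0.15 (0.0134). Mrpl13, Mrpl21, Mrpl38 and Mrpl19 were higher by 0.51, 0.50, 0.47 and 0.47. Mrpl58, the ribosome rescue factor, was also called, at 0.33 ± 0.10 (edgeR adjusted p = 0.0258). Mrps18c, which rose in WT tumours, had -0.34 ± 0.13 (0.0535) and did not pass.

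This count depended on single libraries. It was 35 without B-depleted combination replicate 5, and between 6 and 13 without WT combination replicate 2, 4 or 5 or B-depleted combination replicate 3 or 4. With the Y-linked level as a covariate it was 0. The other lists are set against 15.5% of all genes higher and 13.5% lower. Among them, 4 of the 5 mitoribosomal proteins with other names were higher and 0 lower, led by Ptcd3 (0.65 ± 0.17). Of 15 translation factors 4 were higher, with the elongation factor partners Tsfm at 0.55 ± 0.12 and Tufm at 0.33 ± 0.09. Of 12 biogenesis regulators 5 were higher, with Ppargc1a at 0.96 ± 0.32 and Myc at 0.77 ± 0.18. Of 83 cytosolic ribosomal protein genes 35 were higher and 1 lower. T cell genes were lower in 12 of 14, at 359 to 499 CPM summed in B-depleted and 591 to 933 CPM in WT libraries. Cell cycle genes were higher in 14 of 16, at 1237 to 1996 against 796 to 1463 CPM. Hepatocyte and hepatoma genes were higher in 8 of 10, at 956 to 2471 against 219.6 to 1279 CPM. Macrophage genes were lower in 9 of 11, at 1074 to 2249 against 1869 to 3687 CPM, and B cell genes were lower in 6 of 7 (1 higher), at 35.1 to 46.6 against 51.2 to 81.7 CPM. Fibroblast and matrix genes were lower in 4 of 12, skeletal muscle genes in 3 of 8 and endothelial genes in 1 of 8, and adipocyte genes were higher in 2 of 4. Y-linked genes were lower in 4 of 4, at 85.9 to 169 against 134.7 to 250.5 CPM. The part of these lists in the result was not tested, apart from the covariate fit for the Y-linked level.

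The member promoters differed from other promoters in letters that the choice of members did not use. RefSeq gave 75 promoters of 300 bases for 69 of the 78 members. The ETS core CCGGAA was found on either strand in 43 of them, or 57.3%, against 19.2% of 20139 promoters of protein-coding genes and 14.9% of all 32851. The YY1 core AANATGGC was in 28.0% against 6.47% and 6.05%. The NRF1 core (GCGCA, any base, GCGC), bound by a factor known from nuclear genes for mitochondrial proteins, was in 17.3% against 6.60% and 4.60%. CCAAT (40.0% against 37.8%), GGGCGG (52.0% against 47.8%) and the E-box CACGTG (9.33% against 8.03%) were about as frequent as in other protein-coding promoters. The 6 motifs were searched separately and their matches may share bases. Median GC content was 58.7% in member promoters and 57.0% in protein-coding promoters, and no test was made. The protein-coding promoters include those of genes not expressed here. Promoters of cytosolic ribosomal protein and respiratory chain genes were not compared, so the motif shares may not be particular to the members.

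**Figure D4:**
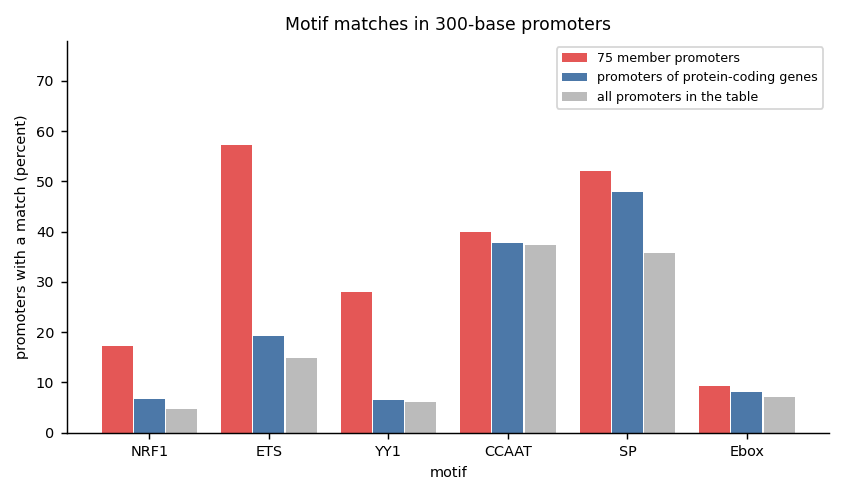
Percent of 300-base promoters with at least 1 match to each of 6 motifs on either strand, for 75 member promoters, promoters of protein-coding genes and all promoters in the table. The member bars are taller than both others for NRF1, ETS and YY1, at 17.3%, 57.3% and 28.0%.

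The matches were not confined to members that fell in WT tumours. Of 30 promoters of members called lower, 17 held the ETS core, 10 the YY1 core and 8 the NRF1 core. Of 42 promoters of tested members that were not called, the counts were 23, 11 and 5. A match is a run of letters and not a measured binding site. Many members also start next to another gene: 18 of 78, or 23.1%, have an opposite-strand protein-coding gene starting within 1000 bases upstream. The share was 6.77% among 21992 protein-coding genes. Pairs whose 5′ ends overlap, such as Mrpl46 and Mrps11, were not counted. Mrpl49 starts 59 bases from Fau, which encodes a cytosolic ribosomal protein, and Mrps12 starts 172 bases from Sars2, the mitochondrial seryl-tRNA synthetase. Mrps18c starts 29 bases from the helicase gene Helq. The members lie on 17 chromosomes.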

How the data were processed

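Whole-gene read counts were deposited by the authors as 1 table of raw counts for 21 libraries. Libraries were TruSeq Stranded mRNA from AllPrep RNA, per the labels' protocols. cutadapt 2.4, STAR 2.7.2a and the GRCm38 genome are named, per the submitters' processing notes; the counting program, its strand setting and the annotation were not named there. Gene IDs were matched to GENCODE symbols on GRCm38 (55227 of 55487; the rest held 0.0183% of counts).

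Groups came from the labels. Counts were fitted in R 4.3.3 with edgeR 4.0.16 (TMM, filterByExpr, robust quasi-likelihood F test, two-sided) as 1 model of 4 groups over 19061 genes, with Benjamini-Hochberg adjustment over all of them and a threshold of 0.05. DESeq2 1.42.0 and limma voom (limma 3.58.1) were alternatives. Fold changes are log2, SEs come from the model, and CPM uses library totals. Library totals were 9523017 to 19166818 counts, and SEs reflect the spread between libraries as well as counting error. The edgeR script was tested on simulated data. No 2 libraries of a group agreed within sampling noise (chi-square per degree of freedom at least 7.14 over 45 pairs).

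The members, gene lists and named-gene rule were chosen with earlier results of these data known. Named were, per comparison, up to 8 called members of largest rise and of largest fall. Where fewer than 5 were called the rule took the 5 of smallest p, and only the first of these are printed above. Also named were the 5 highest and 5 lowest by RPKM and members with roles apart. Mrpl11, Mrpl39, Mrpl43 and Mrps25 were named beside these after their values were seen. Tf, a hepatocyte marker, was not found and was left out.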

Additional observations from a re-analysis of the deposited data

Results flagged for a closer look

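Among 35 named members and 2 summed measures, 148 groups of 5 or 6 libraries were searched for a library far from the rest of its group. Chance gives about 1 in 20 groups, but the same libraries recur for each measure, so the searches are not independent. In all, 15 values stood out. Of these, 5 belong to replicate 5 of the B-depleted combination group, always as the lowest: Mrpl10 at 44.8 CPM (group median 57.1), Mrpl24 at 33.8 CPM (median 44.1), Mrps31 at 9.50 CPM (median 12.1), Mrps35 at 26.1 CPM (median 42.8) and the share of counts in all members at 0.136% (median 0.171%). That library also held 27532 CPM of fibroblast and matrix genes, against at most 10123 CPM in the other 4 of its group.

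Replicate 4 of the WT combination group was lowest for Mrps2 at 20.1 CPM and for Mrps18c at 5.46 CPM, and replicate 1 of that group was highest for Mrpl47 at 14.3 CPM and Mrps9 at 48.5 CPM. In the WT isotype group Mrpl47 was high in replicate 3 at 13.7 CPM and Mrpl58 in replicate 5 at 21.3 CPM. In the B-depleted isotype group replicate 5 was lowest for Mrps7 at 15.5 CPM and Mrps34 at 11.8 CPM, and replicate 6 was highest for Mrpl22 at 10.5 CPM. In the B-depleted combination group Mrps12 was high in replicate 2 at 9.48 CPM.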

How the results depend on the processing

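In WT tumours 37 members were called, and the count was 28 to 46 with 1 library left out, 0 with the Y-linked covariate and 21 with members that overlap other exons left out (fewer genes counted). With that covariate 17 of the 37 changed sign, among them Mrpl33, Mrpl50, Mrpl49 and Mrps35 (-0.03, 0.007, 0.136 and 0.037), Mrpl44 (0.29), Mrpl13 (0.29), Mrpl19 (0.14), Mrpl45 (0.11) and Mrpl38 (0.03). For B-depleted against WT under the combination, 24 calls became 14 without a filter on low counts, 10 in a fit of the groups compared alone, 0 with the covariate, 11 without overlapping members and 6 to 35 with 1 library left out. For the difference between responses, 0 became 3 by DESeq2, 8 without WT isotype replicates 1 and 2, and 0 to 6 with 1 library left out; a fit of only the groups compared is the same fit there and was not made. The other comparisons gave 0 to 0 calls with 1 library left out. The causes were not tested. Other normalizations, DESeq2 and limma voom gave 39 to 43 calls in WT tumours. Named members kept direction and call in 356 of 378 refits without 1 library and lost the call in 22.

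A replicate block by title number gave 38 calls in WT tumours, 25 for B-depleted against WT under the combination and 0 elsewhere; a block by description code gave 32, 27 and 0 and cost Mrpl33 its call. No pairing by these numbers is stated in the labels. By title number, 9 of 30 same-numbered pairs correlated above 0.1, and 3 of 21 libraries matched their own number best. Such correlations cannot decide whether the numbers record shared handling. With every library thinned to the smallest, 36 members were called in WT tumours and 20 for B-depleted against WT under the combination.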
